A study of Homo sapiens with 18 samples.

Results

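The genes described here are ATF4 and 9 genes it is known to switch on: ASNS, PHGDH, PSAT1, PSPH, SHMT2, MTHFD2, CHAC1, TRIB3 and SESN2. They were chosen by name from general knowledge of the pathway, with earlier results of these data known, as 10 of the 58051 genes in the deposited table. All 10 passed the filter on low counts in both cell lines. The libraries come from SKMEL2 and SKMEL30, melanoma cell lines with mutant NRAS, into which the tet-ON vector pTRIPZ-PPP2R3B had been placed by lentivirus. PPP2R3B is a regulatory subunit of the phosphatase PP2A, and the study asked what its overexpression changes. Each line has 3 libraries of untreated cells, called uninduced here, 3 of cells given doxycycline for 6 h and 3 of cells given it for 18 h, 18 libraries in all. The later time is given as the labels state it, and the time at which the uninduced cells were harvested is not given in the sources used here. All groups of both lines carry the vector. No group received doxycycline without it, so doxycycline and PPP2R3B cannot be told apart in any change after induction. The stable lines were selected with puromycin, whether as pools or clones is not given in the sources used here, and nothing in the labels says whether replicates were separate cultures, so p-values measure the spread between these libraries only.

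ATF4 is the transcription factor of the integrated stress response. When amino acids run short, when unfolded proteins build up in the endoplasmic reticulum or when mitochondria are impaired, a family of kinases phosphorylates the translation factor eIF2. Most protein synthesis then slows, while the ATF4 message is translated more, so that the level of ATF4 mRNA is only a part of its control and its target genes are the usual mRNA readout. Those targets restore amino acids: ASNS makes asparagine, PHGDH, PSAT1 and PSPH carry out the successive steps from a glycolytic intermediate to serine, and SHMT2 and MTHFD2 pass the serine carbon into the mitochondrial folate cycle. CHAC1 degrades glutathione, TRIB3 is a pseudokinase that restrains ATF4 output, and SESN2 is a leucine sensor that restrains mTORC1. Doxycycline is known to slow protein synthesis in mitochondria, a stress that can raise this program, which is why these genes bear on a doxycycline-driven design.

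ATF4 acts with a C/EBP partner on a composite element, searched for here as the letters TGATGNAA on either strand. RefSeq promoters (GRCh38.p14), taken from 250 bases before to 50 bases after a start, were given for 8 of the 10 genes, and PSPH and SHMT2 had none in the table used. The letters were found for 2 of the 8 (25%), ASNS and CHAC1, which is 2 of the 12 promoters of the 8 genes (16.7%), beside 3.62% of all 35116 promoters. They were found for 18 (31.6%) of the 57 nuclear genes of the related lists described below that had a promoter in the table, and for 4.46% of the 27305 genes with a promoter. The ASNS window below covers chr7:97872443-97872502 on the minus strand and the CHAC1 window chr15:40953236-40953295 on the plus strand, both written 5′ to 3′ along the gene. They are shown because ASNS is one of the members with the largest difference between the lines and CHAC1 the least abundant member. The ASNS window lies inside the locus, which has further starts upstream, and the CHAC1 window lies before the gene. Capitals mark the element, which begins 68 bases before the ASNS start and, on the opposite strand, 209 bases before the CHAC1 start.
ASNS: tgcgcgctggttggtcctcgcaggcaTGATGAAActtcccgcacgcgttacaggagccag
CHAC1: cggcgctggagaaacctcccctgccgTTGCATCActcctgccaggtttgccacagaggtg
No match in the other windows says only that these letters are not in them.

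Library totals ran from 13402645 to 22383470 counts. Levels are given as CPM, the count of a gene scaled to a common library size with TMM factors. PPP2R3B was higher in every induced library: uninduced SKMEL2 libraries held 17.2 to 24.4 CPM and induced ones 343 to 515 CPM, and the SKMEL30 ranges were 19.8 to 22.4 CPM and 521 to 617 CPM. All 6 melanocyte markers (MITF, SOX10, PMEL, MLANA, TYR and DCT) averaged at least 1 CPM in both lines, and the leukocyte markers PTPRC and CD3E and the endothelial marker CDH5 stayed under 1 CPM. The keratinocyte markers KRT5 and KRT14 differed between libraries of the same group. Their summed level was 6.91 to 15.0 CPM in uninduced SKMEL2, 0.517 to 7.99 CPM at 6 h and 0.717 to 13.6 CPM at 18 h, and in SKMEL30 it was 0.169 to 1.20 CPM in uninduced cells, 0.251 to 64.0 CPM at 6 h and 0.0668 to 10.7 CPM at 18 h. The highest library was SKMEL30 6 h replicate 3, with 803 counts of KRT5. Without it no member was called at 6 h in SKMEL30, and the log2 fold changes there were 0.07 for ATF4, -0.05 for ASNS, -0.08 for PHGDH, -0.06 for PSAT1, 0.05 for PSPH, -0.09 for SHMT2, -0.03 for MTHFD2, -0.09 for CHAC1, 0.11 for TRIB3 and -0.19 for SESN2, to be read beside the values with it below. The part of these reads in the SKMEL2 results was not tested.

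In uninduced cells the genes of the program were not at a common level. Per kilobase of transcript, which allows genes to be compared, ATF4 stood highest in SKMEL2 at 140 ± 5.55 CPM per kb (SD, n = 3), followed by PSAT1 at 60.3 ± 4.30, PHGDH at 51.1 ± 1.96 and SHMT2 at 48.5 ± 2.07 CPM per kb. MTHFD2 at 29.1 ± 2.28, ASNS at 25.8 ± 3.12, PSPH at 14.4 ± 0.736 and TRIB3 at 11.2 ± 1.10 CPM per kb came next. SESN2, at 2.50 ± 0.278, and CHAC1, at 0.662 ± 0.0776 CPM per kb, were the lowest. Within SKMEL2 the neighbours PHGDH and SHMT2, and the neighbours MTHFD2 and ASNS, lay within their summed SDs of each other, and the other neighbours did not. In SKMEL30 the order began with PHGDH, at 109 ± 2.95 CPM per kb, ahead of ATF4 at 98.4 ± 1.94, PSAT1 at 72.4 ± 1.76, SHMT2 at 56.0 ± 1.27 and MTHFD2 at 30.2 ± 0.436 CPM per kb. TRIB3 at 27.0 ± 0.645 CPM per kb stood above ASNS at 11.4 ± 0.329 and PSPH at 7.50 ± 0.571, the reverse of their order in SKMEL2. SESN2 (3.08 ± 0.0928 CPM per kb) and CHAC1 (0.644 ± 0.122 CPM per kb) were again the lowest, and no neighbours in SKMEL30 lay within their summed SDs. Against all genes with a length, the levels placed ATF4 at the 97.8th percentile in SKMEL2 and the 96.1th in SKMEL30, and CHAC1 at the 18.5th and 23.5th.

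Of the 10 genes, 8 differed between the uninduced lines in edgeR's quasi-likelihood test at an adjusted p (Benjamini-Hochberg, over all genes tested) below 0.05, which is the meaning of "called" throughout. The background was high, since 75.9% of the 17133 genes tested were called in this comparison, so the share of members called is near that of all genes. The direction was mixed: PHGDH, PSAT1, SHMT2, TRIB3 and SESN2 were higher in SKMEL30, and ATF4, ASNS and PSPH were lower. The members' median log2 fold change of SKMEL30 over SKMEL2 was 0.13, beside -0.05 over all genes tested. Positions below are the gene bodies in GRCh38.p14. In bulk RNA, fewer cells that express a gene and less RNA per cell cannot be told apart.

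**Figure D1:**
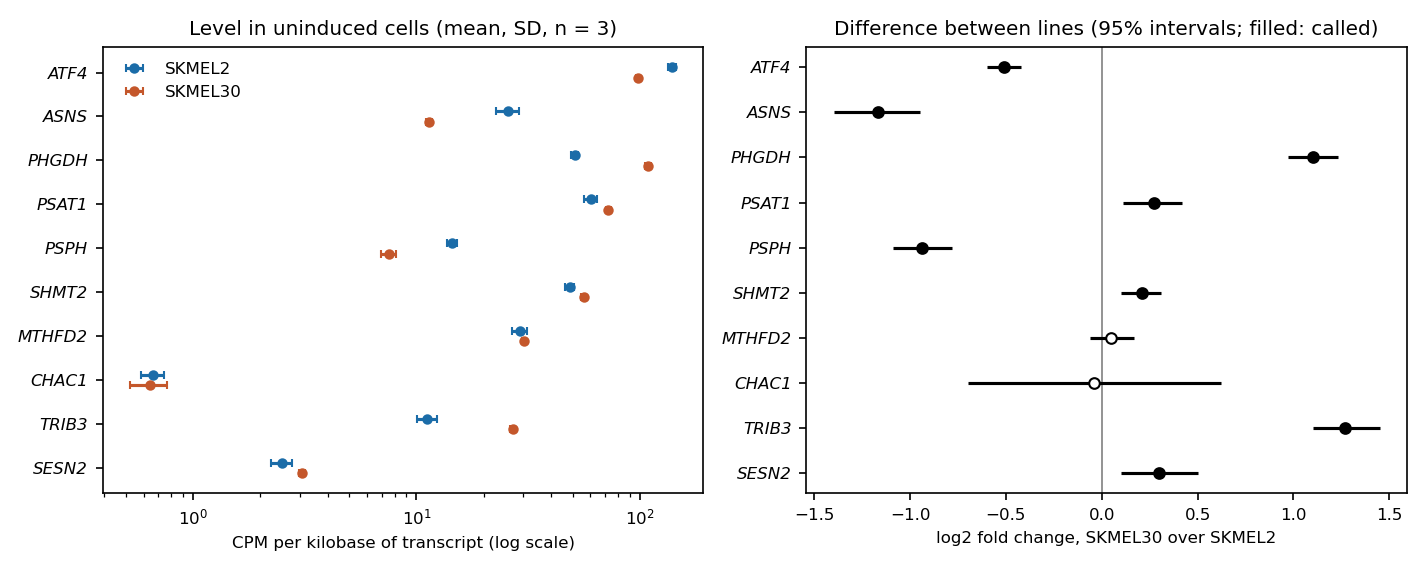
Left, mean level with SD in the 3 uninduced libraries of each line, in CPM per kilobase of transcript on a log axis. Right, log2 fold change of uninduced SKMEL30 over uninduced SKMEL2 with its 95% interval, filled where called: TRIB3 and PHGDH lie furthest to the right, ASNS and PSPH furthest to the left, and MTHFD2 and CHAC1 are not called.

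ATF4 (chr22:39520559-39522686) mRNA itself was lower in SKMEL30. The 3 uninduced SKMEL2 libraries held 190, 201 and 206 CPM and the 3 SKMEL30 libraries 143, 139 and 137 CPM, with no overlap, a log2 fold change of -0.51 (95% interval -0.60 to -0.42, adjusted p = 1.72e-09). ASNS (chr7:97851677-97928441), the asparagine synthetase, had 66.1, 65.4 and 52.9 CPM in SKMEL2 and 27.9, 26.4 and 27.4 CPM in SKMEL30, a log2 fold change of -1.17 (-1.40 to -0.95, adjusted p = 6.42e-09). The ASNS groups did not overlap although replicate 3 of SKMEL2 lay below its 2 partners.

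The 3 enzymes of serine synthesis did not move together between the lines. PHGDH (chr1:119711934-119744215), the dehydrogenase that commits carbon to serine, was at 93.0, 99.6 and 93.6 CPM in SKMEL2 and at 207, 207 and 198 CPM in SKMEL30, 2.14-fold higher (1.95 to 2.34, adjusted p = 4.37e-12). PSAT1 (chr9:78297125-78330093), the aminotransferase of the next step, was at 139, 137 and 122 CPM in SKMEL2 and 156, 160 and 164 CPM in SKMEL30, 1.20-fold higher (1.08 to 1.34, adjusted p = 0.00270). PSPH (chr7:56011064-56051444), the phosphatase of the last step, went the other way. It was at 28.5, 29.7 and 26.8 CPM in SKMEL2 and at 14.9, 13.6 and 15.9 CPM in SKMEL30, a ratio of 0.52 (0.47 to 0.58, adjusted p = 8.10e-10). SKMEL30 thus held more mRNA for the first and second enzymes and less for the last, though the call of PSAT1 rests on the scaling, as given below. None of these 3 pairs of groups overlapped, and the share of all genes without overlap between the lines was not counted.

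The mitochondrial folate enzymes were nearly level. SHMT2 (chr12:57229711-57234935), which moves the serine carbon to folate, was at 99.6, 108 and 106 CPM in SKMEL2 and at 122, 122 and 118 CPM in SKMEL30, 1.15-fold higher (1.07 to 1.24, adjusted p = 0.000954). MTHFD2 (chr2:74198615-74217565), which acts next in the cycle, was at 137, 130 and 117 CPM against 131, 133 and 135 CPM, a log2 fold change of 0.05 (-0.06 to 0.17, adjusted p = 0.391). The MTHFD2 groups overlapped, and the interval leaves room for a difference of up to 1.13-fold.

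Among the 3 stress effectors, TRIB3 differed most. TRIB3 (chr20:380760-397559) had 28.3, 27.7 and 23.5 CPM in SKMEL2 and 64.1, 64.9 and 62.0 CPM in SKMEL30, 2.41-fold higher (2.14 to 2.72, adjusted p = 3.63e-11), so that a pseudokinase usually read as a target of ATF4 was higher in the line with less ATF4 mRNA. SESN2 (chr1:28259518-28282491) was at 9.73, 7.86 and 8.41 CPM against 10.9, 10.3 and 10.8 CPM, 1.23-fold higher (1.08 to 1.42, adjusted p = 0.00729). CHAC1 (chr15:40953471-40956512) had 15, 21 and 25 counts in the SKMEL2 libraries and 21, 17 and 13 counts in the SKMEL30 libraries. Its log2 fold change of -0.04 has an interval from -0.70 to 0.62, or ratios of 0.61 to 1.53, which leaves room for a difference in either direction. The calls of PSAT1, SHMT2 and SESN2 rest on the scaling. With library totals alone in place of TMM, a setting tried after the data had been seen, the median of all genes moved from -0.05 to -0.16, and the log2 fold changes became 0.16 for PSAT1 (adjusted p = 0.0613), 0.10 for SHMT2 (0.0725) and 0.20 for SESN2 (0.0653), which left 5 calls.

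After induction none of the 10 genes was called in SKMEL2 or SKMEL30 at either time, by edgeR or by DESeq2. In SKMEL2, 0.0124% of 16120 genes were called at 6 h and 0.0124% at 18 h. At each time 2 of the 10 genes had an unadjusted p below 0.05, beside 3.37% of all genes at 6 h and 4.65% at 18 h. In SKMEL30, 0.206% of 15026 genes were called at 6 h and 0.293% at 18 h. At each time 1 of the 10 had an unadjusted p below 0.05, beside 6.44% of all genes at 6 h and 9.14% at 18 h. The median log2 fold change of the 10 was 0.01 and 0.04 in SKMEL2 and -0.05 and -0.01 in SKMEL30 at 6 h and 18 h, beside medians over all genes that rounded to 0.00 in all 4 comparisons. In SKMEL2 6 of the 10 had a positive value at each time, in SKMEL30 3 at 6 h and 5 at 18 h.

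**Figure D2:**
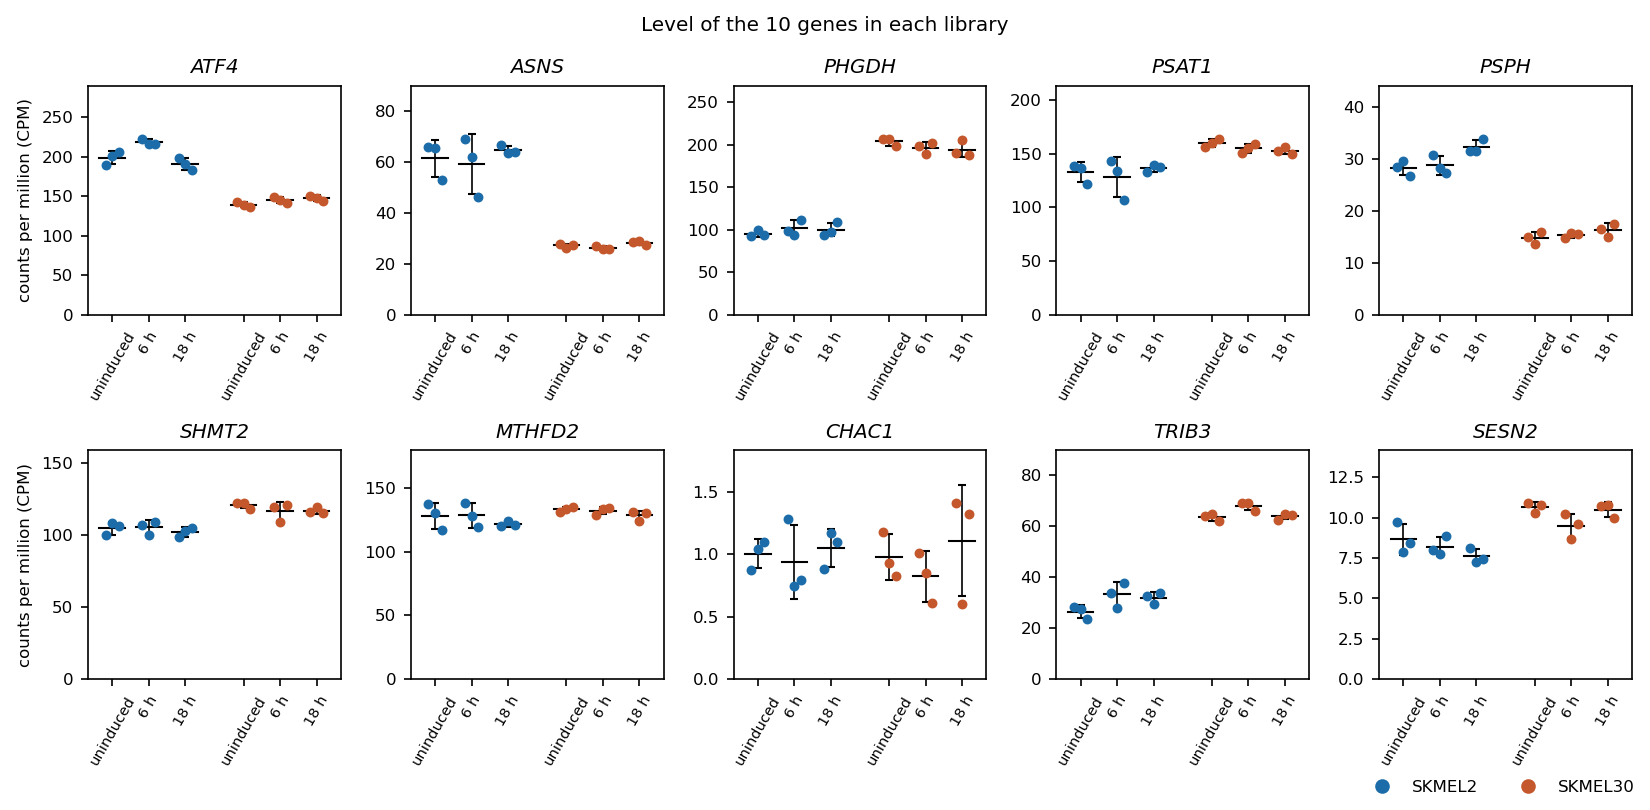
Level in CPM (linear axes from 0) of the 10 genes in each of the 18 libraries, 3 per group, with the group mean (bar) and SD (whiskers). The distance between the lines is wide for ASNS, PHGDH, PSPH and TRIB3, while within a line the induced libraries lie at or near the uninduced ones.

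No member separated the 6 induced from the 3 uninduced libraries of a line. Of all genes tested, 1.24% had all 6 SKMEL2 induced libraries above the uninduced ones and 1.28% had all below, and in SKMEL30 the shares were 2.14% and 2.24%. The count among the 10 genes was 0 in all 4 cases. Elsewhere the text states where 3 libraries of a group lay apart from 3 of another. The share of all genes that did so was not counted, and such statements only describe these libraries.

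ATF4 in SKMEL2 was at 223, 217 and 216 CPM at 6 h and at 198, 191 and 183 CPM at 18 h, beside the 190 to 206 CPM of uninduced cells. All 3 libraries at 6 h lay above both other groups, by a log2 fold change of 0.14 over uninduced cells (95% interval 0.02 to 0.26, unadjusted p = 0.0225, adjusted p = 0.989), and at 18 h the value was -0.06 (-0.18 to 0.06). In SKMEL30 ATF4 was at 149, 145 and 142 CPM at 6 h and 151, 148 and 144 CPM at 18 h, beside 137 to 143 CPM in uninduced cells. The log2 fold changes were 0.06 (-0.01 to 0.13) at 6 h and 0.08 (0.01 to 0.15, unadjusted p = 0.0255, adjusted p = 0.472) at 18 h. The 18 h libraries of SKMEL30 all lay above the uninduced ones, the closest pair by about 1 CPM.

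**Figure D3:**
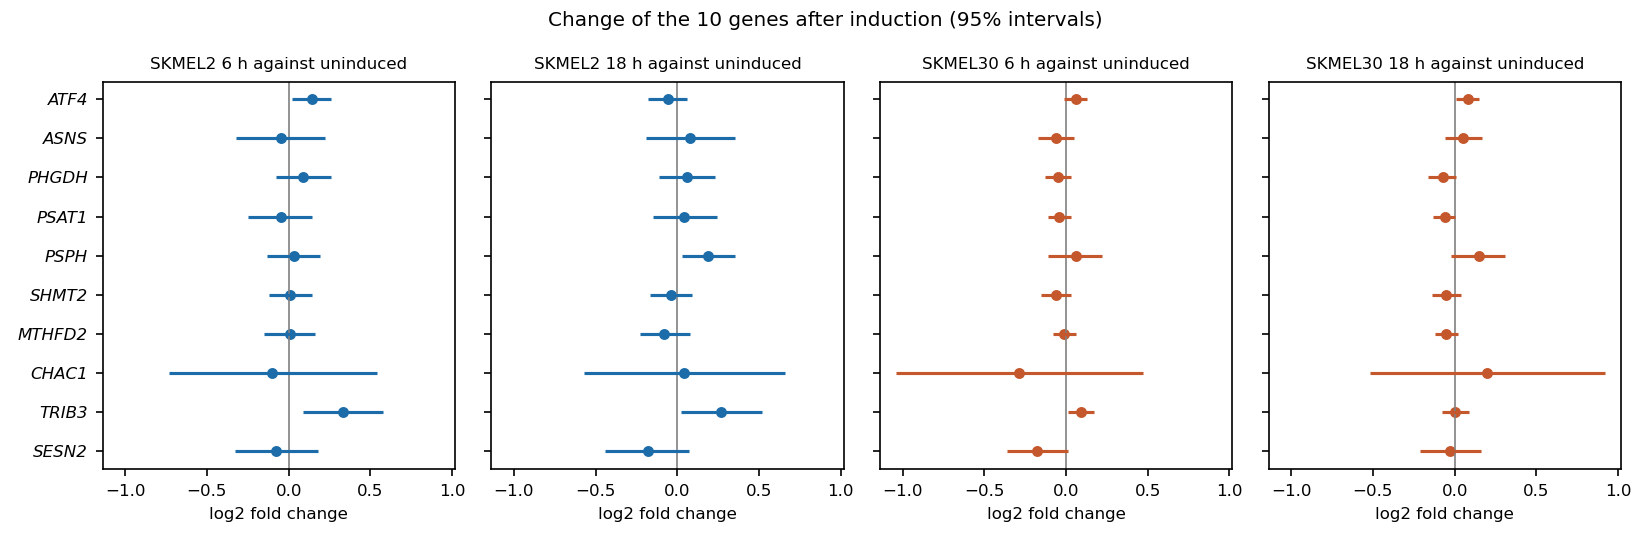
Log2 fold change (points) and 95% interval (lines) of the 10 genes after induction, for each line and time against uninduced cells of the same line. Intervals are widest for CHAC1, and the largest rise is that of TRIB3 in SKMEL2 at 6 h (0.33, not called).

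TRIB3 gave the largest value in SKMEL2. It was at 33.9, 28.1 and 37.7 CPM at 6 h and at 32.6, 29.3 and 33.8 CPM at 18 h, against 23.5 to 28.3 CPM in uninduced cells, so that the 18 h libraries all lay above the uninduced ones and replicate 2 of 6 h fell within them. The log2 fold changes were 0.33 (0.09 to 0.58, unadjusted p = 0.0123, adjusted p = 0.989) and 0.27 (0.02 to 0.52, unadjusted p = 0.0338, adjusted p = 0.987). In SKMEL30 TRIB3 was at 69.0, 69.1 and 66.0 CPM at 6 h, all above the 62.0 to 64.9 CPM of uninduced cells, and at 62.5, 64.9 and 64.6 CPM at 18 h, within their range. The log2 fold change at 6 h was 0.09 (0.01 to 0.17, unadjusted p = 0.0287, adjusted p = 0.724), and 0.11 without replicate 3 of that group, the library with the keratin reads, and at 18 h it was 0.00 (-0.08 to 0.09).

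ASNS, the member with the composite element nearest its start, did not pass the test at any time. In SKMEL2 it was at 69.2, 62.0 and 46.1 CPM at 6 h and at 66.8, 63.7 and 64.0 CPM at 18 h, overlapping the 52.9 to 66.1 CPM of uninduced cells, with log2 fold changes of -0.05 (-0.32 to 0.22) and 0.08 (-0.19 to 0.35). In SKMEL30 the levels were 27.0, 25.7 and 25.8 CPM and 28.4, 29.0 and 27.4 CPM, and the log2 fold changes were -0.06 (-0.17 to 0.05) and 0.05 (-0.06 to 0.17). The upper ends of these intervals correspond to 1.17-fold and 1.27-fold in SKMEL2 and to 1.04-fold and 1.12-fold in SKMEL30.

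Of the serine enzymes, PSPH had the highest values at 18 h. In SKMEL2 it was at 31.5, 31.6 and 33.9 CPM at 18 h, above the 26.8 to 29.7 CPM of uninduced cells, a log2 fold change of 0.19 (0.03 to 0.35, unadjusted p = 0.0226, adjusted p = 0.987), and at 6 h its 30.8, 28.3 and 27.3 CPM overlapped them (0.03, -0.13 to 0.19). In SKMEL30 the 18 h libraries, at 16.5, 15.0 and 17.5 CPM, overlapped the uninduced ones, with a log2 fold change of 0.15 (-0.02 to 0.31), and at 6 h it was 0.06 (-0.11 to 0.22). PHGDH was at 99.0, 93.7 and 112 CPM and then 93.9, 97.3 and 109 CPM in SKMEL2 (log2 fold changes 0.09 and 0.06), and at 199, 189 and 202 CPM and then 190, 205 and 188 CPM in SKMEL30 (-0.05 and -0.07). PSAT1 was at 143, 134 and 107 CPM and then 133, 140 and 138 CPM in SKMEL2 (-0.05 and 0.04), and at 151, 155 and 159 CPM and then 153, 156 and 150 CPM in SKMEL30 (-0.04 and -0.06). PHGDH and PSAT1 overlapped uninduced cells in both lines at 6 h and at 18 h. The intervals for these 2 genes in SKMEL30 ended at 0.03 at 6 h for both, and at 18 h at 0.01 for PHGDH and 0.00 for PSAT1.

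The folate enzymes SHMT2 and MTHFD2 gave values near 0. In SKMEL2 SHMT2 was at 107, 100 and 109 CPM at 6 h and 98.5, 103 and 105 CPM at 18 h, log2 fold changes of 0.01 (-0.12 to 0.14) and -0.04 (-0.17 to 0.09). MTHFD2 was at 138, 128 and 119 CPM and 120, 124 and 121 CPM, log2 fold changes of 0.01 (-0.15 to 0.16) and -0.08 (-0.23 to 0.08). In SKMEL30, where SHMT2 ran from 109 to 121 CPM and MTHFD2 from 124 to 134 CPM in induced cells, all 4 log2 fold changes lay between -0.06 and -0.01, and no interval reached beyond -0.15 or 0.06. MTHFD2 has 7 pseudogenes by name and overlaps SLC4A5. Counts of these pseudogenes and of SLC4A5 reached at most 16 and 28.37, beside at least 1648 for MTHFD2. ATF4, ASNS, PSAT1 and PSPH also have pseudogenes by name, with counts of at most 10.31.

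CHAC1 and SESN2 were the members with the fewest counts. CHAC1 had 9 to 26 counts per library in all 18 libraries. Its log2 fold changes were -0.10 (-0.73 to 0.54) and 0.04 (-0.57 to 0.66) in SKMEL2. In SKMEL30 they were -0.29 (-1.04 to 0.47) and 0.20 (-0.52 to 0.92), and the 6 h value was -0.09 without replicate 3. The SKMEL30 intervals leave room for a rise of up to 1.38-fold at 6 h or 1.89-fold at 18 h. SESN2 had 131 to 205 counts. In SKMEL2 it was at 7.98, 7.75 and 8.85 CPM at 6 h and 8.09, 7.28 and 7.45 CPM at 18 h, log2 fold changes of -0.08 (-0.33 to 0.18) and -0.18 (-0.44 to 0.07). In SKMEL30 it was at 10.2, 8.68 and 9.58 CPM at 6 h, all below the 10.3 to 10.9 CPM of uninduced cells, a log2 fold change of -0.18 (-0.36 to 0.01, unadjusted p = 0.0559, adjusted p = 0.775), and -0.19 without replicate 3. At 18 h its 10.7, 10.8 and 9.95 CPM overlapped uninduced cells (-0.03, -0.21 to 0.16).

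Between 18 h and 6 h, no member was called by edgeR or DESeq2 in either line. Of all genes, 0% were called in SKMEL2 and 0.0200% in SKMEL30. An unadjusted p below 0.05 was found for 2.59% of all genes in SKMEL2 (418 genes) and 5.56% in SKMEL30. ATF4 in SKMEL2 was lower at 18 h than at 6 h in all 3 libraries against all 3, by a log2 fold change of -0.20 (-0.32 to -0.09, unadjusted p = 0.00273, adjusted p = 1.00), and PSPH had 0.16 (0.00 to 0.32, unadjusted p = 0.0483). In SKMEL30 the members with an unadjusted p below 0.05 were ASNS at 0.12 (0.01 to 0.23) and TRIB3 at -0.09 (-0.17 to -0.01). These comparisons share the 6 h libraries with those above.

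The responses of the lines were also set against each other in a fit of all 18 libraries, and no member differed by edgeR or DESeq2. For the 6 h response 0% of 17133 genes were called (842 with an unadjusted p below 0.05, none of them a member), and the members' differences, SKMEL30 minus SKMEL2, ran from -0.24 for TRIB3 (-0.48 to 0.01) to 0.03 for PSPH. For the 18 h response 0.00584% were called, and 5.16% of all genes had an unadjusted p below 0.05. The 2 members among the latter were ATF4 at 0.14 (0.01 to 0.27, adjusted p = 0.895) and TRIB3 at -0.27 (-0.51 to -0.02, adjusted p = 0.895).

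Some members varied together among replicates, and whether this is particular to the members was not tested. After the group mean was removed, ASNS in SKMEL2 lay 0.32 below its group on the log2 scale in 6 h replicate 3 (-0.32) and 0.21 below in uninduced replicate 3 (-0.21), and PSAT1 was at -0.23 and -0.13 and MTHFD2 at -0.09 and -0.13 in the same libraries. Over the 9 SKMEL2 libraries the correlation of these residuals was 0.96 for ASNS with PSAT1, 0.88 for PSAT1 with MTHFD2 and 0.87 for ASNS with MTHFD2. In SKMEL30 the same pairs gave -0.05, 0.26 and -0.57, and the closest pairs were ASNS with SESN2 (0.86) and PHGDH with SHMT2 (0.85). PHGDH with SHMT2 gave 0.78 in SKMEL2. ATF4 with ASNS gave -0.14 in SKMEL2 and 0.70 in SKMEL30. Of the 45 pairs, 10 in SKMEL2 and 7 in SKMEL30 were above 0.5 and 2 and 8 below -0.5, with medians of 0.08 and -0.00. The shares over all pairs of genes were not counted. Genes outside the members also spread widely in the SKMEL2 6 h group, such as SLC38A1 (63.7 to 127 CPM) and DCT (350 to 593 CPM). These values are descriptions over 9 libraries that share scaling and depth, and the pairs with CHAC1 rest on its 9 to 26 counts. With the means of 3 groups removed the 9 residuals of a gene are not independent, so each r is less firm than 9 libraries would make it.

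**Figure D4:**
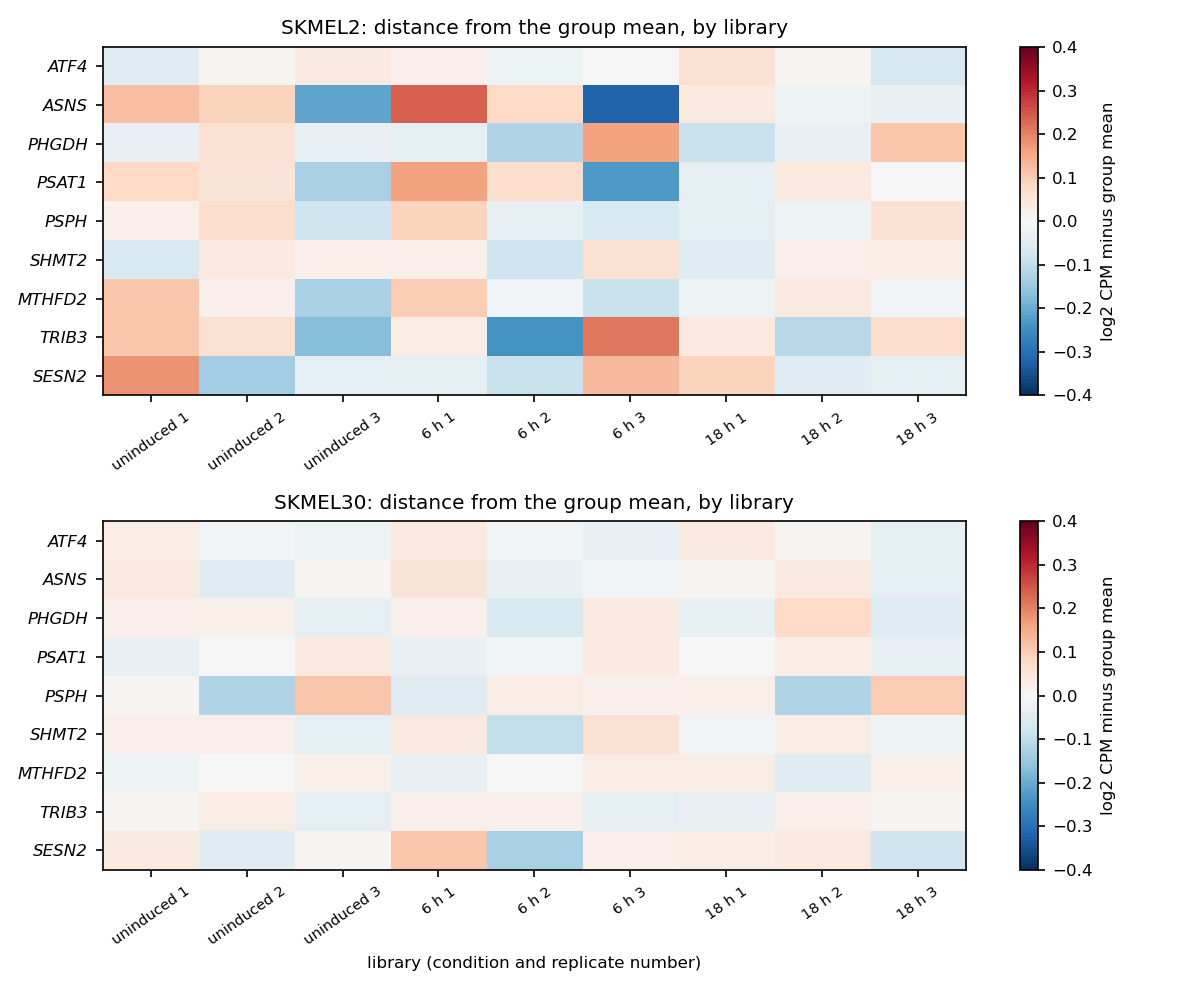
Log2 CPM minus the mean of the library's group for 9 of the 10 genes (CHAC1, with at most 26 counts, is left out) in the 9 libraries of each line; red is above and blue below the group mean. In SKMEL2, ASNS, PSAT1 and MTHFD2 are low together in replicate 3 of the uninduced and of the 6 h group, where ASNS reaches -0.32.

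The genes whose residuals were most like the members' mean were, in SKMEL2, NPTN (r = 0.98), FAM86B2 (0.98), ECPAS (0.97), PANX1 (0.96) and KLRG1 (0.96), of 16110 genes compared over 9 libraries. In SKMEL30 they were NBPF1 (0.99), ID3 (0.98), SPATA2 (0.98), AGBL5 (0.98) and ADSS1 (0.97), of 15016 genes. No gene is on both lists, and FAM86B2 and NBPF1 belong to families of near-identical copies, so that their counts are uncertain. These r were picked as the highest of all genes compared over only 9 libraries, and how high picking alone would take them was not computed. The members' own pairs had a median r of 0.08 in SKMEL2 and -0.00 in SKMEL30. CHAC1, at 9 to 26 counts, weighed equally in their mean. The lists are therefore descriptions only.

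The rest of the pathway was read from 8 lists of 84 further genes. In SKMEL2 0 of the 80 tested were called at 6 h or 18 h by edgeR (1 and 4 with an unadjusted p below 0.05, beside 3.37% and 4.65% of all genes). In SKMEL30 6 of 79 (7.59%) were called at each time, beside 0.206% and 0.293% of all genes at 6 h and 18 h. All 6 were higher, and all were mRNAs encoded in the mitochondrial genome: MT-ND1, MT-ND2, MT-ND3, MT-ATP6, MT-ATP8 and MT-CYB. An unadjusted p below 0.05 was found for 13 of the 79 at each time, beside 6.44% and 9.14% of all genes. Of these 13, 7 at 6 h and 8 at 18 h were mitochondrially encoded. No nuclear gene of the lists was called after induction in either line with the filter on low counts, and CBS was called in SKMEL30 at 6 h without it (0.70, adjusted p = 0.0418).

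Upstream of ATF4, none of the 9 genes for eIF2, its kinases, its phosphatase subunits and the mitochondrial relay of OMA1 and DELE1 was called. The smallest p in SKMEL2 was that of EIF2AK4, the kinase that senses uncharged tRNA, at -0.09 (-0.19 to 0.02), and in SKMEL30 that of PPP1R15B, which directs the phosphatase to eIF2, at 0.12 (0.04 to 0.21, adjusted p = 0.554). Among the 6 partner transcription factors CEBPB was first by p in both lines, at 0.30 (-0.00 to 0.60) in SKMEL2 and 0.10 (-0.01 to 0.21) in SKMEL30, both at 6 h. The 6 had medians of -0.04 at 6 h and -0.04 at 18 h in SKMEL2, with values down to -0.51 at 18 h. In SKMEL30 the medians were 0.04 and 0.02.

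Among the targets that resemble the members, the 9 amino acid transporters tested, of 11, had medians between 0.01 and 0.07 in the 4 comparisons, and SLC3A2, the heavy chain shared by several exchangers, had the smallest p in SKMEL2 (0.16 at 18 h, -0.03 to 0.36) and SLC1A4, a carrier of serine and alanine, in SKMEL30 (0.07 at 18 h, 0.01 to 0.13). The 13 tRNA synthetases lay between -0.11 and 0.16, with YARS1 (-0.11 in SKMEL2 at 18 h) and TARS1 (0.07 in SKMEL30 at 6 h) first by p. Of the 13 other enzymes, MTHFD1L, the mitochondrial formate-producing step beyond MTHFD2, was at -0.15 (-0.29 to -0.01, adjusted p = 0.987) in SKMEL2 at 18 h, and CBS, which joins serine to homocysteine, was at 0.70 (0.04 to 1.35, adjusted p = 0.756) in SKMEL30 at 6 h, with 26 to 73 counts in the uninduced libraries. Of the 11 other stress targets and paralogs tested, TRIB1, a relative of TRIB3, was at -0.17 (adjusted p = 0.989) in SKMEL2 and GDF15, a secreted stress signal, at 0.41 (0.10 to 0.72, adjusted p = 0.624) in SKMEL30, both at 6 h. The 6 mitochondrial chaperones and proteases lay between -0.11 and 0.09, with HSPD1 (-0.10 in SKMEL2 at 18 h) and HSPE1 (0.07 in SKMEL30 at 6 h) first by p.

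**Figure D5:**
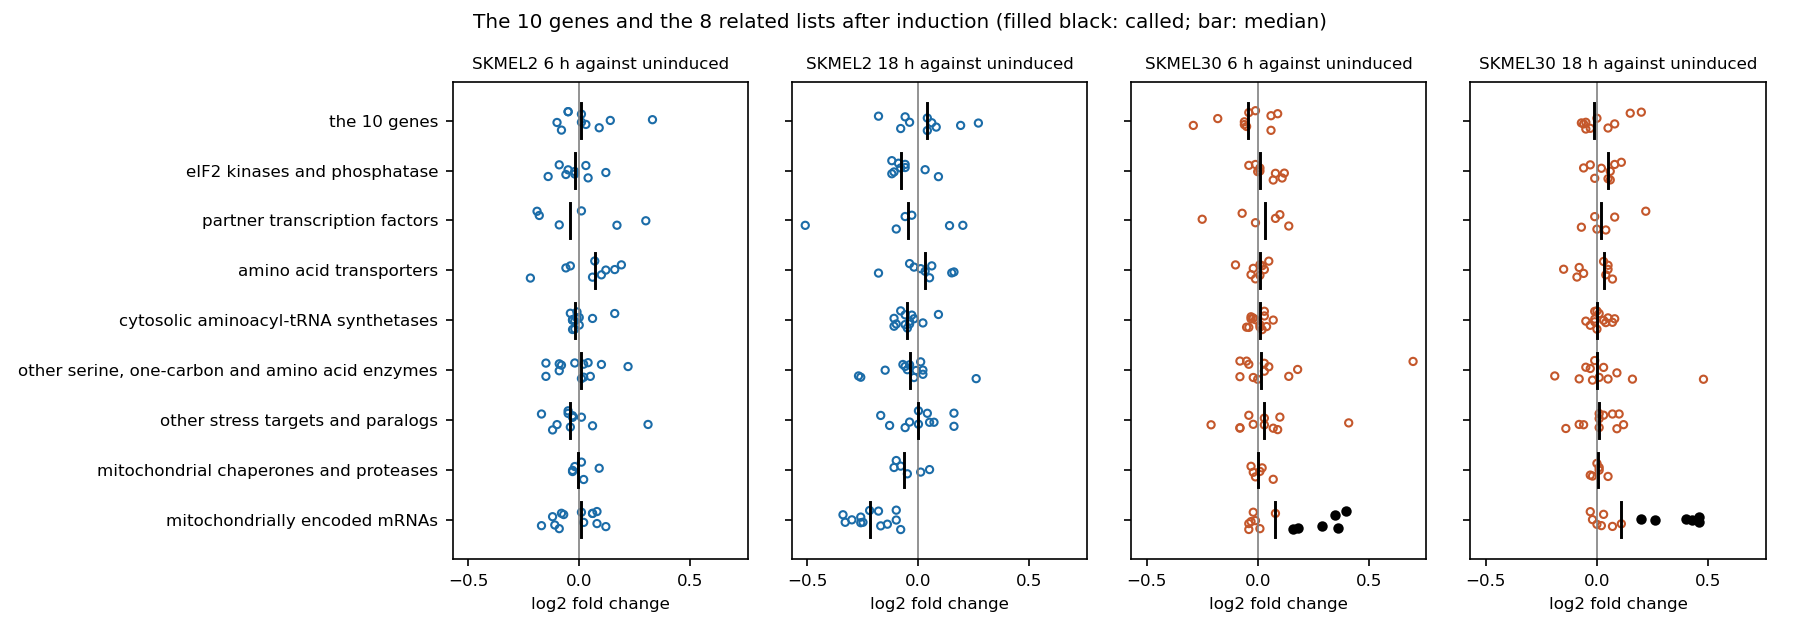
Log2 fold change after induction of each tested gene of the members and of the 8 related lists, by line and time, with the list median as a bar and called genes in black. Called genes appear only in the mitochondrially encoded list of SKMEL30 (6 at each time), and the same list lies to the left of 0 in SKMEL2 at 18 h with none called.

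Of the 13 mitochondrially encoded mRNAs, whose translation doxycycline can slow, 6 were called higher in SKMEL30 and none in SKMEL2, and their difference from the members was not tested. When the responses of the lines were set against each other, 0 of the 13 were called at 6 h and 0 at 18 h. An unadjusted p below 0.05 was found for 0 of them at 6 h and 7 at 18 h, beside 4.91% and 5.16% of all genes. In SKMEL30 MT-CYB went from 3405 ± 97.9 CPM to 4328 ± 100 CPM at 6 h and 4671 ± 45.1 CPM at 18 h (SD, n = 3), with no overlap between uninduced and induced libraries, log2 fold changes of 0.35 and 0.46 (adjusted p = 5.99e-06 and 2.67e-07). The 6 called ranged from 0.16 to 0.40 at 6 h and from 0.20 to 0.46 at 18 h, and MT-ATP6 and MT-ATP8 overlap in the genome. In SKMEL2 all 13 were at negative values at 18 h, with a median of -0.22 and none called, led by p by MT-ND6 at -0.33 (adjusted p = 0.987), which is called when no filter on low counts is applied (-0.34, adjusted p = 0.000686). The uninduced SKMEL2 libraries spread widely and overlapped those at 18 h. MT-ND6 ran from 549 to 856 CPM in uninduced cells and from 506 to 557 CPM at 18 h. For MT-CYB the ranges were 4841 to 7247 CPM, with a mean of 5721, and 4891 to 5459 CPM. All 12 calls in SKMEL30 are lost when the spread is estimated from all 18 libraries, with adjusted p from 0.404 to 1.00. The call of MT-ND1 at 6 h is also lost without replicate 3 of the 6 h group, the library with the keratin reads (0.16, adjusted p = 0.137), where MT-CYB remains at 0.34 (adjusted p = 0.000104).

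Between the uninduced lines 62 of the 80 list genes were called (77.5%), 30 higher and 32 lower in SKMEL30, close to the 75.9% of all genes. The kinase EIF2AK3 (PERK), at 1.29 (adjusted p = 6.04e-13), and the arginine carrier SLC7A1, at 1.07 (3.31e-14), were higher in SKMEL30, as were GOT1 (1.37), VLDLR (0.91) and HSPA9 (0.40). The stress cofactor NUPR1, at -2.06 (1.66e-10), and the tRNA synthetase CARS1, at -1.52 (1.12e-14), were lower, as was MT-ATP6 (-1.04). Of the 13 tRNA synthetases 8 were called lower and 3 higher in SKMEL30, and of the 9 amino acid transporters tested 6 were called higher and 2 lower.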

How the data were processed

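RNA was extracted from SKMEL2 and SKMEL30 cells, and mRNA libraries were made with the KAPA mRNA HyperPrep kit and sequenced as paired reads of 43 bases. The deposited values are expected counts per gene that the authors estimated with RSEM after trimming and alignment with STAR to Ensembl GRCh38. The submitters' processing notes name RSEM 1.3.0 and SAMtools 1.8. All 18 columns were matched to a labelled sample. The counts carry no scaling, and 12.3% are not whole, since RSEM divides shared reads. They were rounded before use.

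Genes were filtered with filterByExpr and scaled by TMM in edgeR 4.0.16 (R 4.3.3). The 9 libraries of a line were fitted with glmQLFit and tested with glmQLFTest, and comparisons between lines used all 18. p-values were adjusted by the Benjamini-Hochberg method over all genes tested, with a threshold of 0.05, and intervals are 95% intervals. edgeR put the biological variation between replicates at 8.36% (SKMEL2) and 4.11% (SKMEL30) of the level. Replicate pairs differed by more than counting noise (chi-square per degree of freedom 2.13 to 20.6). The intervals of the fold changes are built from the same quasi-likelihood test and so cover the spread between these libraries, and nothing beyond them.

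The members and lists were chosen with earlier results of these data known. All members are described. From the lists, the text names every gene called after induction, the gene with the smallest p in each line and at baseline, and the 5 genes most like the members' mean residual in each line. Levels per kilobase used canonical transcript lengths from a GRCh37 annotation, matched by gene ID. Coordinates are those of GRCh38.p14. Alternatives were DESeq2 1.42.0, RLE factors, no filter, the replicate number as a block, other sets of libraries and each library left out, and, after the data had been seen, library totals alone. In simulated data for the 18 h comparison, 200 genes were changed among 16120 in SKMEL2 and 15026 in SKMEL30. Of genes changed by 1 on the log2 scale 80.0% and 85.7% were recovered, and of those changed by 0.5, 48.4% and 62.9%. False calls numbered 11 and 8. In the data themselves 2 and 44 genes were called at 18 h. With more genes changed the adjusted threshold is easier to pass, so these shares may be too high for the members.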

Additional observations from a re-analysis of the deposited data

How the results depend on the processing

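No member was called after induction, between times or between the responses of the lines under DESeq2, RLE factors, no filter, the replicate block, a single fit of 18 libraries, library totals alone, or with any library left out, and in each of these the count was 0. The 8 calls between the uninduced lines remained 8 in number under all of these that apply and with the 6 uninduced libraries only, except under library totals alone, where the count was 5. Residuals of libraries with the same replicate number correlated at -0.13 to 0.17 in SKMEL2 (3 of 9 above 0.1) and -0.02 to 0.12 in SKMEL30 (1 of 9). Libraries of unlike number were not compared, so these values cannot decide whether the numbers mark pairs. The replicate block gave 8 calls between the lines and 0 elsewhere.

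Some values near 0 changed sign. MTHFD2 in SKMEL2 at 6 h became -0.00 without the filter and -0.00 with library totals alone. With library totals alone PHGDH in SKMEL2 between 6 h and 18 h became 0.01, TRIB3 in SKMEL30 at 18 h -0.00, MTHFD2 between the uninduced lines -0.05 and its difference between lines at 18 h -0.00. Under the replicate block the difference of ASNS at 6 h became 0.00. When libraries were left out in turn, 34 values of members, none of them called, changed sign, and their log2 fold changes then spanned the following ranges. In SKMEL2 at 6 h these were ASNS -0.17 to 0.09, CHAC1 -0.38 to 0.05, MTHFD2 -0.06 to 0.06, PSAT1 -0.13 to 0.05, PSPH -0.01 to 0.06, SESN2 -0.14 to 0.02 and SHMT2 -0.02 to 0.05. In SKMEL2 at 18 h these were ASNS -0.02 to 0.14, CHAC1 -0.04 to 0.16 and PSAT1 -0.02 to 0.08. In SKMEL30 at 6 h these were MTHFD2 -0.03 to 0.00 and PSPH -0.00 to 0.11. In SKMEL30 at 18 h these were CHAC1 -0.00 to 0.48, SESN2 -0.05 to 0.01 and TRIB3 -0.01 to 0.02. In SKMEL2 between 6 h and 18 h these were ASNS -0.01 to 0.25, CHAC1 -0.01 to 0.43, PHGDH -0.09 to 0.05, PSAT1 -0.01 to 0.17 and TRIB3 -0.18 to 0.04. In SKMEL30 between 6 h and 18 h these were PHGDH -0.06 to 0.00 and SHMT2 -0.04 to 0.04. In the comparison of uninduced lines these were CHAC1 -0.19 to 0.07 and MTHFD2 -0.00 to 0.11. In the difference between lines at 6 h these were ASNS -0.16 to 0.12, CHAC1 -0.34 to 0.11, MTHFD2 -0.07 to 0.05, PSAT1 -0.10 to 0.10 and PSPH -0.04 to 0.08. In the difference between lines at 18 h these were ASNS -0.08 to 0.07, CHAC1 -0.05 to 0.44, MTHFD2 -0.02 to 0.09, PSPH -0.10 to 0.02 and SHMT2 -0.04 to 0.02.

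Among list genes, no filter gave calls for MT-ND6 in SKMEL2 at 18 h (-0.34, adjusted p = 0.000686) and CBS in SKMEL30 at 6 h (0.70, adjusted p = 0.0418). The cause was not tested. MT-ND1 (0.13 to 0.19) and MT-ND2 (0.15 to 0.20) in SKMEL30 at 6 h each lost the call when any of 3 of the 6 libraries was left out: uninduced replicate 1, 6 h replicate 1 and 6 h replicate 3 for MT-ND1, uninduced replicates 1 and 3 and 6 h replicate 1 for MT-ND2. Depth limits CHAC1 most, at 9 to 26 counts.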
